A study of Mus musculus with 45 samples.

Results

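A set of 10 marker genes of the hippocampal subfields was followed in the hippocampus of 45 female mice. Prox1, Dsp and C1ql2 mark the granule cells of the dentate gyrus, Wfs1, Fibcd1 and Pou3f1 the pyramidal cells of CA1, Amigo2, Rgs14 and Pcp4 those of CA2, and Bok those of CA3. The genes were taken by symbol as known markers of these cells and not by a rule on their values. They were chosen with earlier results of these data known. All 10 of 10 were present in the table of 15897 genes, each in 1 row. The question they address is whether the dissection or the cell make-up of the hippocampus differed between genotypes and diets.

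The hippocampus is built as a relay. Granule cells of the dentate gyrus send mossy fibres to the pyramidal cells of CA3, which project to CA1, while the small CA2 field between them has inputs and plasticity rules of its own. Each field keeps its own set of transcription factors, signalling proteins and adhesion molecules through adult life, so that a few genes are taken to stand for a field in RNA of the whole tissue. Between mice the CA1 markers moved together here, the CA2 markers did not, and of the granule cell markers only Prox1 and Dsp did. Co-variation of this kind cannot decide whether a gene stands for its field, since high correlations were common over the whole table. In such bulk RNA, fewer cells of a type and less RNA per cell cannot be told apart.

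All mice were on the C57Bl/6J background, were 13 months old, and had been put on their diet at 7 months. AwTw mice were wild type littermates. A+Tw mice carried APPswe/PS1dE9, a chimeric mouse and human APP with the Swedish mutations together with the exon-deleted human PS1, under the mouse PrP promoter, which is active well beyond neurons. AwT+ mice carried human Tau P301L under the CaMKII promoter, which drives it in forebrain excitatory neurons, the same cells that the markers stand for. A+T+ mice came from a cross of both lines and carried both transgenes. Each genotype received a standard diet (STD, 5% fat and no cholesterol) or a typical Western diet (TWD, 21% fat, 0.15% cholesterol, 35% sucrose). The groups held 6 mice each, except A+Tw/STD with 5 and A+T+/STD with 4, and the labels put 20 and 25 mice in 2 batches, with no word on what a batch was, of which A+Tw/STD had only 1 mouse in batch 0. The mice were perfused with saline, and the hippocampus of a mouse was 1 dissected block and 1 library.

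The values are the deposited variance-stabilised values on a log2 scale, so a difference of 1 is about a doubling, and differences of low genes are understated. They carry no read depth. Differences are given with their standard error (SE) from a linear model of limma over all 45 mice with a batch term, and p-values were adjusted by the Benjamini-Hochberg method over all 15897 genes. App was 0.90 (SE 0.0486) and Prnp 1.11 (SE 0.0452) higher in A+ than in Aw mice, without overlap of the groups for either gene, while mouse Mapt differed by 0.06 (SE 0.0549) between T+ and Tw mice and so could not check the tau label. The amount of choroid plexus, the secretory epithelium that lies against the hippocampus, varied widely: Ttr, its most abundant transcript, ran from 7.49 to 18.08. A choroid plexus score, the mean of 10 standardised genes, was above 0 in all 4 A+T+/STD mice (0.668 to 1.23) but ran from -1.18 to 0.990 in AwTw/STD mice, and no gene of that list passed the test in any comparison.

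**Figure D1:**
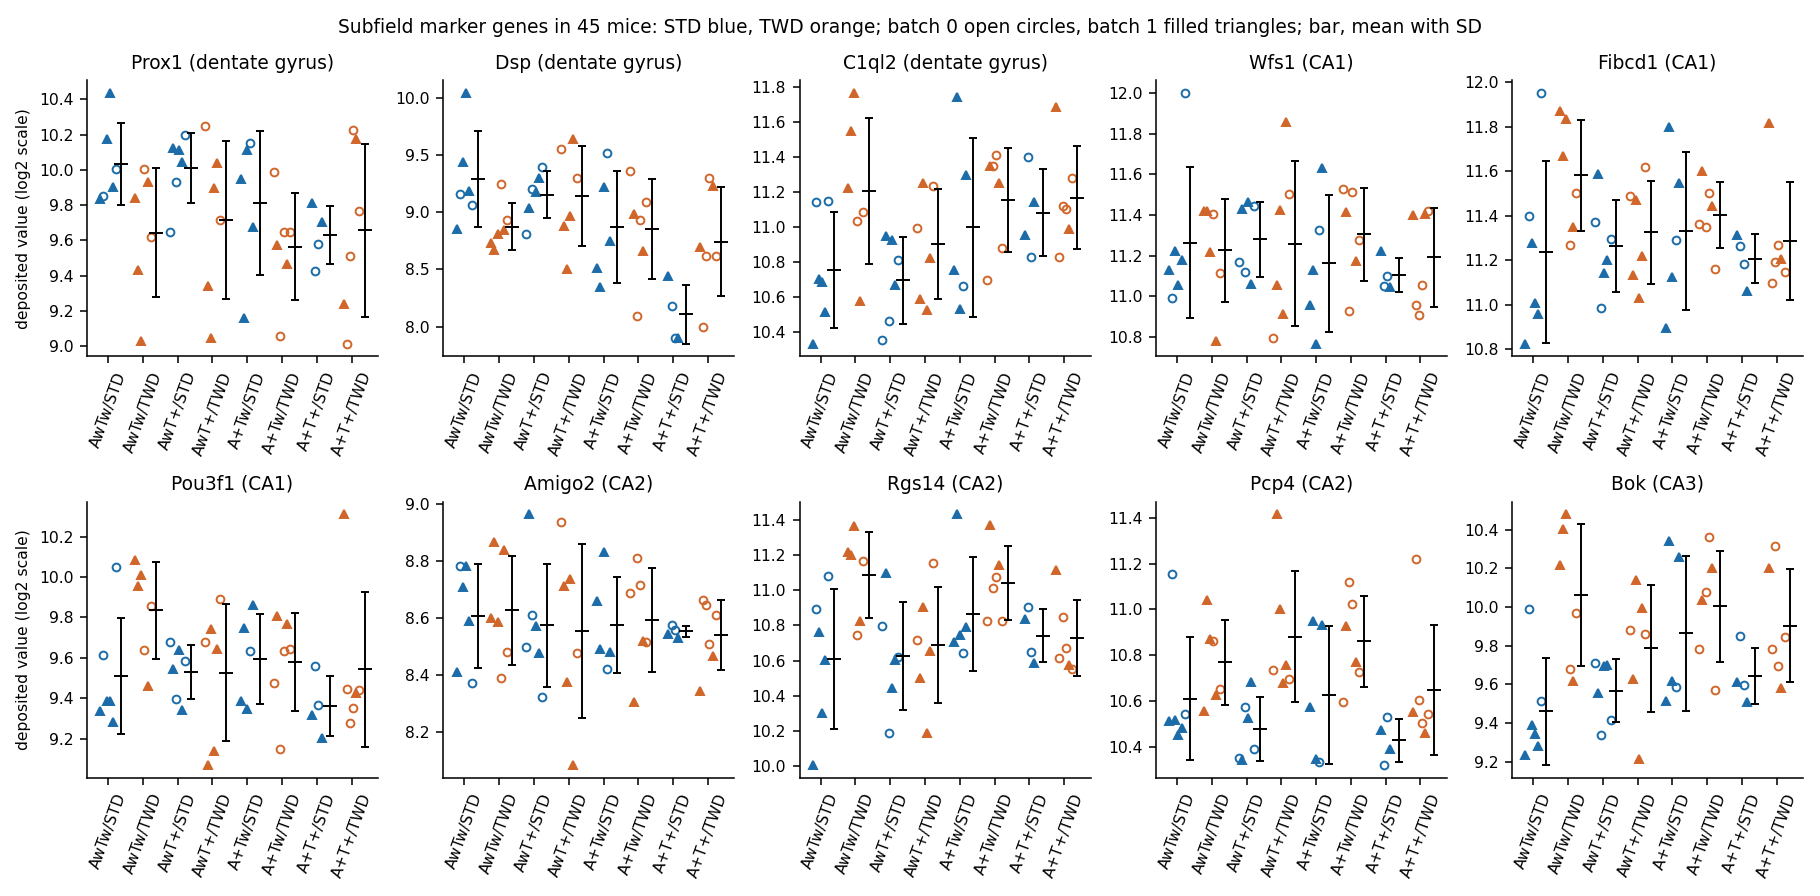
Deposited values (log2 scale, vertical axes that do not start at 0) of the 10 markers in each of the 8 groups. Each point is 1 mouse, with STD in blue and TWD in orange, open circles for batch 0 and filled triangles for batch 1, and the black bar gives the mean with the SD. Dsp lies lowest in A+T+/STD, with 4 mice between 7.90 and 8.44.

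The granule cell markers are shown first, with the promoters of the 3 genes, since Prox1 and Dsp rose and fell together between mice of a group, which C1ql2 did not do with either. The sequences are from RefSeq on GRCm38.p6, which had an entry for 8 of the 10 genes, and run from 250 bases before to 50 bases after a transcription start. Capitals mark matches to CANNTG, the E-box that basic helix-loop-helix factors such as NeuroD proteins bind, which reads the same on both strands.
Prox1, chr1:190170778-190171077, minus strand: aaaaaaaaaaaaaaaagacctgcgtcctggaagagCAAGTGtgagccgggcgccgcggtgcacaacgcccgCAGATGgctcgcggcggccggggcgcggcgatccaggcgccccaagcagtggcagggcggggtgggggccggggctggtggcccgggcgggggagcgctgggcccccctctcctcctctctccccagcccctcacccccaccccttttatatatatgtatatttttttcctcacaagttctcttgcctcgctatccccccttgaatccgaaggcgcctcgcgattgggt
Dsp, chr13:38151044-38151343, plus strand: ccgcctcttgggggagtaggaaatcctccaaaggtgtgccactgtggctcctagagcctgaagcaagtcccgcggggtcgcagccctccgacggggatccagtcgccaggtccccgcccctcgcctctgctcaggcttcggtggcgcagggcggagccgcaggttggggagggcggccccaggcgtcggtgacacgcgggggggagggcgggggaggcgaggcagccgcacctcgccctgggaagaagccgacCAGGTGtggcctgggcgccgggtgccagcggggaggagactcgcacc
C1ql2, chr1:120340332-120340631, plus strand: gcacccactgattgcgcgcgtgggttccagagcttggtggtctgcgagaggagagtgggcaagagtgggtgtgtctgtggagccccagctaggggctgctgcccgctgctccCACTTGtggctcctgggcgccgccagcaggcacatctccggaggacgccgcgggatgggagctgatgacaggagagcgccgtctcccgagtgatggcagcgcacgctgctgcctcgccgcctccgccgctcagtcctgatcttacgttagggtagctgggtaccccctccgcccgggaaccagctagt
The Prox1 window held 2 matches, and those of Dsp and C1ql2 held 1 each. A second listed start of Prox1 (chr1:190169466-190169765) held 0. Among all 32851 listed promoters, 72.3% held at least 1 match and 39.6% held 2 or more, so the 3 windows did not stand apart by this motif.

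Dsp was the marker with the largest difference between genotypes, and it was lowest in mice with both transgenes on STD. Dsp (chr13:38151294-38198577, plus strand, GRCm38) encodes desmoplakin, the plaque protein that ties intermediate filaments to desmosomes, and in the hippocampus its mRNA is a mark of mature granule cells. In AwTw/STD mice Dsp ran from 8.85 to 10.04 with a median of 9.17. In A+T+/STD mice the 4 values were 7.90, 7.90, 8.18 and 8.44. All 4 A+T+/STD mice lay below all 6 AwTw/STD mice. The difference was -1.19 (SE 0.243, adjusted p = 0.00304), and Dsp was the 1 marker of 10 that passed the test in this comparison, beside 1.32% of all genes. Groups that did not overlap in this comparison were found for 2 of the 10 markers, Dsp and Prox1, beside 4.31% of all genes.

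The other groups filled the range between. The 5 A+Tw/STD mice had Dsp values of 8.35, 8.51, 8.75, 9.22 and 9.52. AwT+/STD mice ran from 8.81 to 9.39 (median 9.19). Both groups overlapped AwTw/STD. On TWD, Dsp ran from 8.00 to 9.30 (median 8.66) with both transgenes, from 8.10 to 9.36 (median 8.96) with APP/PS1 alone, from 8.51 to 9.64 (median 9.13) with tau alone and from 8.67 to 9.25 (median 8.83) in the wild type. All 4 TWD groups overlapped each other. Ordered by mean, AwTw/STD was highest (9.29 ± 0.42, SD, n = 6), followed by AwT+/STD (9.15 ± 0.21, n = 6), AwT+/TWD (9.14 ± 0.43, n = 6) and AwTw/TWD (8.87 ± 0.20, n = 6). The A+ groups followed, with A+Tw/STD at 8.87 ± 0.49 (n = 5), A+Tw on TWD at 8.85 ± 0.43 (n = 6), A+T+/TWD at 8.74 ± 0.48 (n = 6) and A+T+/STD at 8.11 ± 0.26 (n = 4). Each step in this order was smaller than the larger SD of the neighbouring groups, except the last, from A+T+/TWD to A+T+/STD.

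Over both diets and both tau genotypes, Dsp ran from 7.90 to 9.52 (median 8.66) in 21 A+ mice and from 8.51 to 10.04 (median 9.11) in 24 Aw mice. The ranges overlapped, with the A+ mice shifted down. The difference was -0.48 (SE 0.114, adjusted p = 0.00634, limma), and again Dsp was the 1 marker of 10 past the threshold, beside 3.77% of all genes. These mice include the 4 A+T+/STD mice. On STD alone the A+Tw difference from AwTw was -0.41 (SE 0.228, adjusted p = 0.785), and on TWD the A+T+ difference was -0.15 (SE 0.220, 95% interval -0.60 to 0.29, adjusted p = 0.916).

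Dsp was higher on TWD than on STD within A+T+ mice by 0.62 (SE 0.243), with overlapping groups (adjusted p = 0.998, limma). The A+T+ difference from AwTw on TWD minus that on STD was 1.04 (SE 0.325), with an unadjusted p of 0.00272 in the limma fit, an adjusted p of 0.56, and 0 genes of 15897 past the threshold. A dependence of the A+T+ difference on diet was therefore not shown after adjustment, and an interaction of the APP/PS1 and tau transgenes on Dsp was not shown either (-0.51, SE 0.226, adjusted p = 1.00).

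Leaving out any 1 of the 45 mice left both Dsp calls past the threshold, with differences from -1.32 to -1.04 in A+T+/STD and from -0.51 to -0.44 for A+. Within batches the A+T+/STD difference was -1.07 in batch 0 and -1.20 in batch 1, and that for A+ was -0.42 and -0.41, all with the same direction but none past the threshold (lowest adjusted p = 0.138). The choroid plexus list went the other way from Dsp: 10 of its 10 genes had higher values in A+T+/STD, with a median difference of 2.15. Within groups, residuals of Dsp and of the choroid plexus score had r = -0.27 over 45 mice (permutation adjusted p = 0.0972), with -0.43 in batch 0 and -0.14 in batch 1. With the score as a covariate Dsp still differed, by -1.04 (adjusted p = 0.0309) in A+T+/STD and by -0.41 (adjusted p = 0.0428) for A+. Among the mice with a score above 0, an alternative chosen after the data were seen, the differences were -0.89 (adjusted p = 0.479) and -0.35 (adjusted p = 0.612). Microglia markers rose as well, with 6 of 7 past the test in A+T+/STD (median 1.28). This rise was not particular to A+T+/STD. Against AwTw on the same diet, 6 of 7 also passed in A+Tw/STD (median 1.33), A+Tw/TWD (1.09) and A+T+/TWD (0.89). In those groups the Dsp difference from AwTw did not pass the test. The part of microglia in the Dsp difference was not tested.

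**Figure D2:**
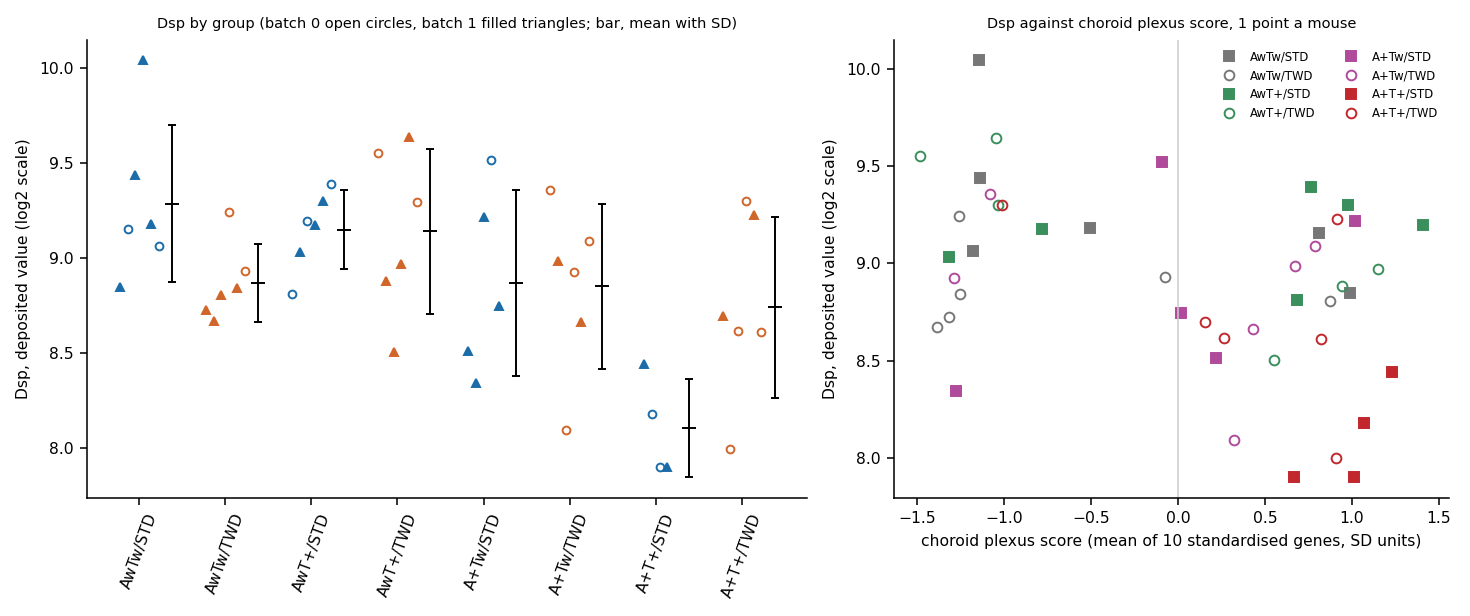
Left, Dsp (deposited value, log2 scale) by group, 1 point a mouse, with the mean and SD as a bar. Right, Dsp against the choroid plexus score (SD units), with filled squares for STD and open circles for TWD. The 4 A+T+/STD mice sit at 7.90 to 8.44 with scores of 0.668 to 1.23, and the AwTw/STD mice with a score above 0 sit at 8.85 and 9.16.

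Prox1 (chr1:190118035-190170714, minus strand) encodes a homeodomain factor that sets and keeps granule cell identity. In AwTw/STD mice it ran from 9.83 to 10.44 (median 9.95). The 4 A+T+/STD mice had values of 9.43, 9.58, 9.70 and 9.81. These groups did not overlap, but the fitted difference of -0.41 (SE 0.223) had an adjusted p of 0.374. Between TWD and STD it differed by -0.25 (SE 0.102, adjusted p = 0.0623, limma) over all genotypes, and by -0.39 in the wild type. An antisense gene, Prox1os, shares 133 of 8390 exon bases with Prox1, and how strand was counted is not given in the sources used here.

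C1ql2 (chr1:120340582-120343174, plus strand) encodes a secreted C1q-like protein of the mossy fibre synapse, where it takes part in placing kainate receptors. Its fitted differences did not pass the test in any comparison. The values ran from 10.33 to 11.15 (median 10.69) in AwTw/STD and were 10.83, 10.96, 11.14 and 11.40 in A+T+/STD. The groups overlapped, with the A+T+/STD mice in the upper part. C1ql2 differed by 0.22 (SE 0.102, adjusted p = 0.298) between A+ and Aw mice and by 0.24 (SE 0.0993, adjusted p = 0.0614) between TWD and STD over all genotypes.

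The further granule cell genes, a list of 12 that included Calb1 for the calcium buffer calbindin, leaned the same way as Dsp on STD and over all A+ mice, without passing the test. In A+T+/STD 1 of 12 had a higher value and 0 passed, with a median difference of -0.38 beside -0.01 for all genes. For A+ against Aw the median was -0.14 beside -0.02 for all genes, 1 of 12 was higher and 0 passed. On TWD alone this lean was not seen: 7 of 12 were higher in A+T+ and 7 of 12 in A+Tw than in AwTw (medians 0.02 and 0.05). The lean was not particular to granule cell genes. Of 7 further CA1 genes, 1 was higher in A+T+/STD (median -0.22) and 0 were for A+ against Aw (median -0.11). The further CA2 and CA3 lists did not lean down in A+T+/STD (medians 0.07 and 0.10). Calb1 differed by -0.14 (SE 0.0603, adjusted p = 0.271) between A+ and Aw. Under TWD over all genotypes 2 of the 12 fell, Stxbp6, a syntaxin-binding protein (-0.46, SE 0.131, adjusted p = 0.0162), and Pdzd2 (-0.27, SE 0.0976, adjusted p = 0.0374). In that comparison 29.4% of all genes passed, more than the share of this list.
The 6 genes of immature granule neurons and progenitors had a median difference of -0.12 under TWD, where 29.4% of all genes passed. Dcx, the microtubule protein of migrating neuroblasts, fell by 0.53 (SE 0.181, limma adjusted p = 0.0285). For A+ against Aw, 2 of the 6 were higher, with a median of -0.10 beside -0.02 for all genes. Mki67, a proliferation marker, was the 1 gene of the list that passed, 0.31 higher in A+ mice (SE 0.0910, limma adjusted p = 0.0459), beside 3.77% of all genes. Which dividing cells carried the Mki67 rise was not tested.

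**Figure D3:**
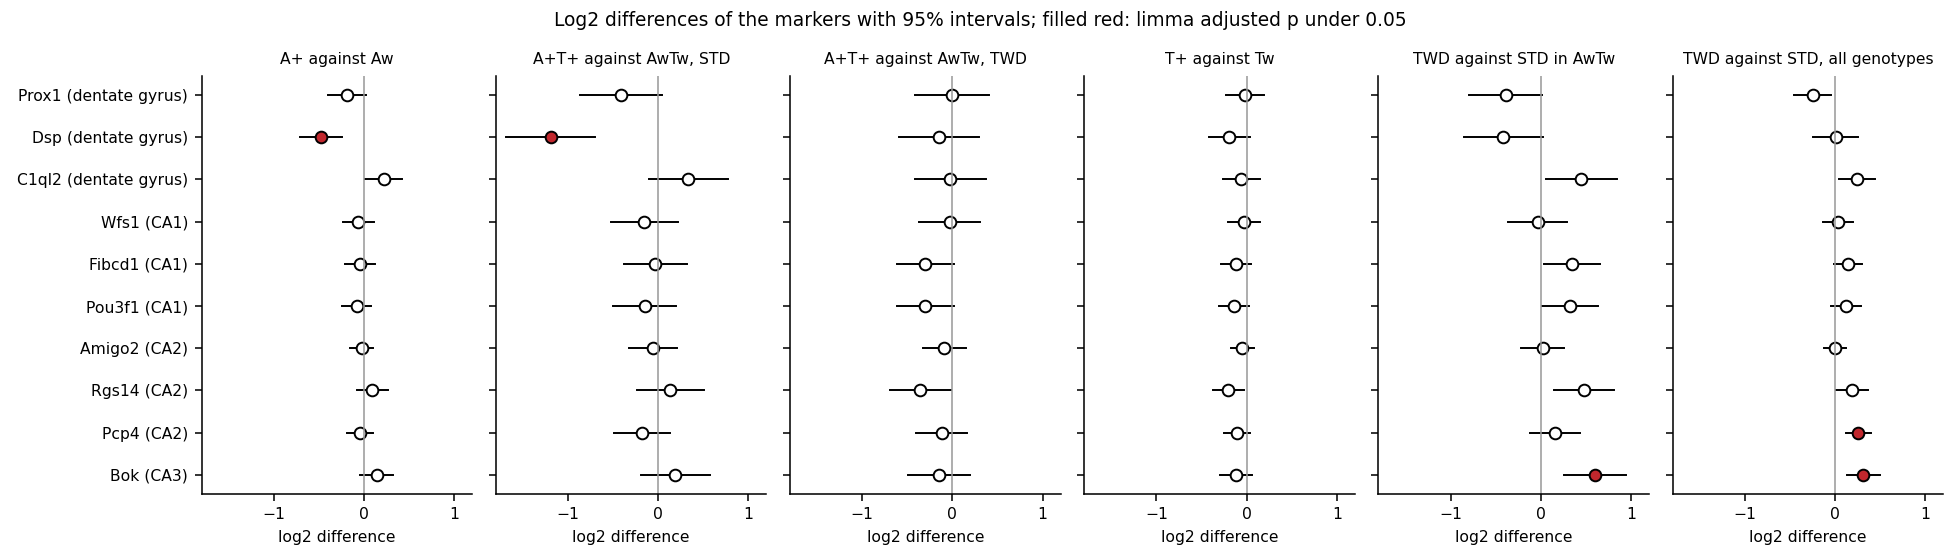
Log2 differences of the 10 markers (points) with 95% intervals (lines) in 6 comparisons, with filled red points where the limma adjusted p was under 0.05. Dsp stands out for A+ against Aw (-0.48) and for A+T+ on STD (-1.19), and Bok and Pcp4 in those of diet.

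The CA1 markers did not separate the groups. Wfs1 (chr5:36966104-36989205, minus strand) encodes wolframin, a membrane protein of the endoplasmic reticulum. Its group means lay between 11.11 and 11.30, and the groups accounted for 4.85% of its variance between mice, against a median of 22.2% over all genes. In the A+ comparison its difference was -0.06 (95% interval -0.24 to 0.11), and under TWD over all genotypes it was 0.04 (95% interval -0.13 to 0.20). One AwTw/STD mouse stood at 12.00, with the next at 11.22.

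Fibcd1 (chr2:31813290-31846005, minus strand) encodes a chitin-binding membrane receptor, and Pou3f1 (chr4:124656807-124660655, plus strand) a POU-domain transcription factor. Fibcd1 ran from 10.82 to 11.95 (median 11.14) in AwTw/STD and from 11.27 to 11.87 (median 11.58) in AwTw/TWD. Pou3f1 ran from 9.28 to 10.05 (median 9.39) and from 9.46 to 10.08 (median 9.91) in the same groups. Both genes overlapped between diets, with medians higher on TWD. The differences, 0.35 (SE 0.153, adjusted p = 0.0896) for Fibcd1 and 0.33 (SE 0.154, adjusted p = 0.108) for Pou3f1, did not pass the limma test. Between A+ and Aw mice they were -0.05 (SE 0.0805) and -0.08 (SE 0.0810). Pou3f1 shares 330 of its 3849 exon bases with an antisense gene, Gm2164, which has no row in the table.
Of 7 further CA1 genes, 0 were higher in A+ mice and Gpr161, a ciliary receptor, passed the test (-0.20, SE 0.0573, adjusted p = 0.0307), while under TWD Man1a, a Golgi mannosidase, was lower (-0.34, SE 0.0978, adjusted p = 0.0172).

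Among the CA2 markers, Amigo2 had the smallest share of variance by group of the 10 genes, and Pcp4 rose on TWD. Amigo2 (chr15:97244125-97247287, minus strand) encodes a cell adhesion protein. Its group means lay between 8.54 and 8.63, the groups accounted for 2.55% of its variance, and its difference was -0.03 (95% interval -0.15 to 0.10) for A+ and -0.00058 (95% interval -0.12 to 0.12) for TWD. The 4 A+T+/STD mice had values of 8.53, 8.55, 8.56 and 8.58. It shares 58 of 3163 exon bases with Pced1b on the other strand.

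Rgs14 (chr13:55369732-55384687, plus strand) encodes a signalling scaffold that restrains synaptic plasticity in CA2. It ran from 10.00 to 11.08 (median 10.68) in AwTw/STD and from 10.75 to 11.37 (median 11.18) in AwTw/TWD. The groups overlapped, with most TWD mice higher. The difference of 0.48 (SE 0.164) had an adjusted p of 0.0504. It was -0.032 in batch 0, with 2 mice a group, and 0.74 in batch 1 (adjusted p = 0.0430), and it passed the threshold in 5 of 11 other settings. Between T+ and Tw mice Rgs14 differed by -0.20 (SE 0.0862, adjusted p = 0.932, limma).

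Pcp4 (chr16:96467606-96525793, plus strand) encodes a small calmodulin-binding peptide, also present in granule cells. Over all genotypes it ran from 10.46 to 11.42 (median 10.73) in 24 TWD mice and from 10.32 to 11.15 (median 10.51) in 21 STD mice. The ranges overlapped, with the TWD mice shifted up. The difference was 0.26 (SE 0.0697, adjusted p = 0.0157). Within genotypes it was 0.40 with tau alone, 0.22 with both transgenes, 0.23 with APP/PS1 alone and 0.16 in the wild type, higher on TWD in 4 of 4 genotypes, and in none of them past the threshold (lowest adjusted p = 0.378). Pcp4 shares 243 of 1026 exon bases with Igsf5 on the same strand, which has no row in the table. The 6 further CA2 genes had a median difference of 0.07 under TWD and of -0.03 for A+, and 0 passed in either, with Necab2, a calcium-binding protein, and Stard5, a lipid transfer protein, the highest in level.

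Bok, the CA3 marker, was higher on TWD. Bok (chr1:93685660-93695764, plus strand) encodes a member of the BCL2 family that is abundant in CA3 neurons and in the dentate gyrus. In AwTw mice it ran from 9.24 to 9.99 (median 9.37) on STD and from 9.62 to 10.48 (median 10.09) on TWD. Of the AwTw/STD mice 5 of 6 lay below all TWD mice, and 1 at 9.99 lay among them. The difference was 0.60 (SE 0.169, adjusted p = 0.0498), and Bok was the 1 marker of 10 past the threshold in this comparison, beside 9.35% of all genes. This call sits on the threshold: it was lost on leaving out any 1 of 32 of the 45 mice, and within batches the difference was 0.07 in batch 0, with 2 mice a group, and 0.87 in batch 1 (adjusted p = 0.0430).

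Over all genotypes Bok ran from 9.21 to 10.48 (median 9.92) on TWD and from 9.24 to 10.34 (median 9.59) on STD. The ranges overlapped almost fully, with the medians apart. The difference was 0.32 (SE 0.0895, adjusted p = 0.0163), and it was positive in 4 of 4 genotypes, from 0.15 in A+Tw to 0.60 in AwTw. Bok and Pcp4 were the 2 markers of 10 past the threshold for TWD over all genotypes, beside 29.4% of all genes, so that the share of markers called was below the share of genes called. Leaving out any 1 mouse left both calls, but neither held in batch 0 alone (0.24 for each gene, limma adjusted p = 0.820). They were also lost with a score on the first residual component, the main axis of variation between mice of a group, as a covariate (Bok 0.11, adjusted p = 0.654, and Pcp4 0.19, adjusted p = 0.587). This score was computed from values that still held the group differences. It ran from -0.25 to 1.95 in AwTw/STD and from -2.30 to 1.16 in AwTw/TWD, so the covariate was not free of diet. Among mice with a choroid plexus score above 0 Bok was lost as well (0.28, adjusted p = 0.102), and Pcp4 was not (0.31, adjusted p = 0.0400). Of the 7 further CA3 genes, Col6a1, a collagen chain also made outside neurons, was 0.59 higher (SE 0.163, adjusted p = 0.0271) in A+ mice and fell by 0.42 (SE 0.157, adjusted p = 0.0399) under TWD, and the medians of the list were 0.02 and -0.01.

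In the remaining comparisons 0 of 10 markers passed the limma test. For A+Tw against AwTw on STD and on TWD, 0.925% and 0.824% of all genes passed, and 1 and 0 markers had an unadjusted p under 0.05. For A+T+ against AwTw on TWD these were 0.73% of genes and 1 marker, with 10 of 10 markers lower and a median difference of -0.13. For T+ against Tw they were 0.0189% of genes and 1 marker, with 10 of 10 markers lower and a median of -0.11 beside -0.01 for all genes. For any difference among the 8 groups they were 1.84% of genes and 4 markers, with Dsp nearest to the threshold (adjusted p = 0.0536). For tau alone against wild type on either diet, for TWD in each of the 3 transgenic genotypes and for the 4 interactions, 0% of genes passed. In these comparisons 0 to 1 of the 10 markers had an unadjusted p under 0.05. Comparisons against AwTw/STD share those 6 mice.

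Markers of neighbouring regions were followed in the same fits. In A+T+/STD against AwTw/STD the median difference was 0.17 over 4 thalamus genes, -0.21 over 5 striatum genes, -0.15 over 6 neocortex genes and -0.01 over 3 subiculum genes, with 0 genes past the threshold in each. Mossy cells, the excitatory cells of the hilus, had a median of 0.02 over 4 genes. General excitatory neuron genes had a median of -0.11 over 8 genes and inhibitory interneuron genes one of -0.14 over 6, also with 0 past the threshold. Of the remaining cell types, astrocyte genes had a median of 0.22 with 1 of 4 past the threshold, oligodendrocyte genes one of 0.08 with 0 of 4 and endothelial genes one of 0.09 with 0 of 3. Under TWD over all genotypes, 3 of 8 excitatory neuron genes passed with a higher and 1 with a lower value, among them Nrgn, a postsynaptic calmodulin-binding protein, at 0.45 (SE 0.124, adjusted p = 0.0159), and 2 of 6 interneuron genes were called higher and 2 lower, beside 29.4% of all genes.

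The markers were then compared between mice within groups. Residuals, the values after group and batch were removed, were correlated over the 45 mice for each of the 45 pairs of markers, with p-values from 100000 permutations (two-sided) adjusted over the 45 pairs. Of the pairs 22 passed, 15 positive and 7 negative. High correlations were common over the whole table: 36.4% of all genes had an absolute r over 0.5 with Prox1 and 42.0% with C1ql2, though 8.20% with Amigo2. The share of all gene pairs past the threshold was not computed. Of pairs within a field 5 of 9 passed, 4 positive and 1 negative (median r = 0.14). Of pairs between fields 17 of 36 passed, 11 positive and 6 negative (median r = 0.03), and the difference was not tested. The 3 CA1 markers all went together, each pair past the threshold. Their r was 0.79 for Fibcd1 and Pou3f1, 0.61 for Wfs1 and Pou3f1 and 0.49 for Wfs1 and Fibcd1. In order of r among all genes, Pou3f1 was only number 368 for Fibcd1 and 785 for Wfs1, and Fibcd1 was number 1792 for Wfs1. Of the 3 CA2 pairs none passed, with r from -0.09 (Amigo2 and Rgs14) to 0.14 (Rgs14 and Pcp4). The largest r was that of Fibcd1 and Rgs14, markers of CA1 and CA2 (r = 0.86, Spearman's rho = 0.86, adjusted p = 4.1e-05, the smallest these permutations gave), which was 0.85 in batch 0, 0.87 in batch 1 and 0.86 without the 2 mice farthest from the Fibcd1 median.

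Prox1 and Dsp rose and fell together (r = 0.81, rho = 0.76, adjusted p = 4.1e-05, 100000 permutations), with r of 0.92 in batch 0, 0.72 in batch 1 and 0.77 without the 2 farthest mice. Among all 15897 genes Prox1 was the third nearest to Dsp, after Adcy1 (r = 0.82), a calcium-stimulated adenylyl cyclase, and Add2 (r = 0.82), the adducin of the membrane skeleton, while Dsp was number 195 in order for Prox1. C1ql2, the other granule cell marker, ran against Prox1 (r = -0.42, rho = -0.37, adjusted p = 0.00812, permutation test), but this rested on batch 1, where r was -0.63, against -0.10 in batch 0. C1ql2 instead went with Bok (r = 0.78, rho = 0.77), Fibcd1 (r = 0.75) and Rgs14 (r = 0.74), each with a permutation adjusted p of 4.1e-05. In order of r with C1ql2 among all genes, these were only numbers 454, 766 and 875. Prox1 and Dsp both ran against Pcp4 (r = -0.62 and -0.53), and Amigo2 ran against Wfs1 (r = -0.59).

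**Figure D4:**
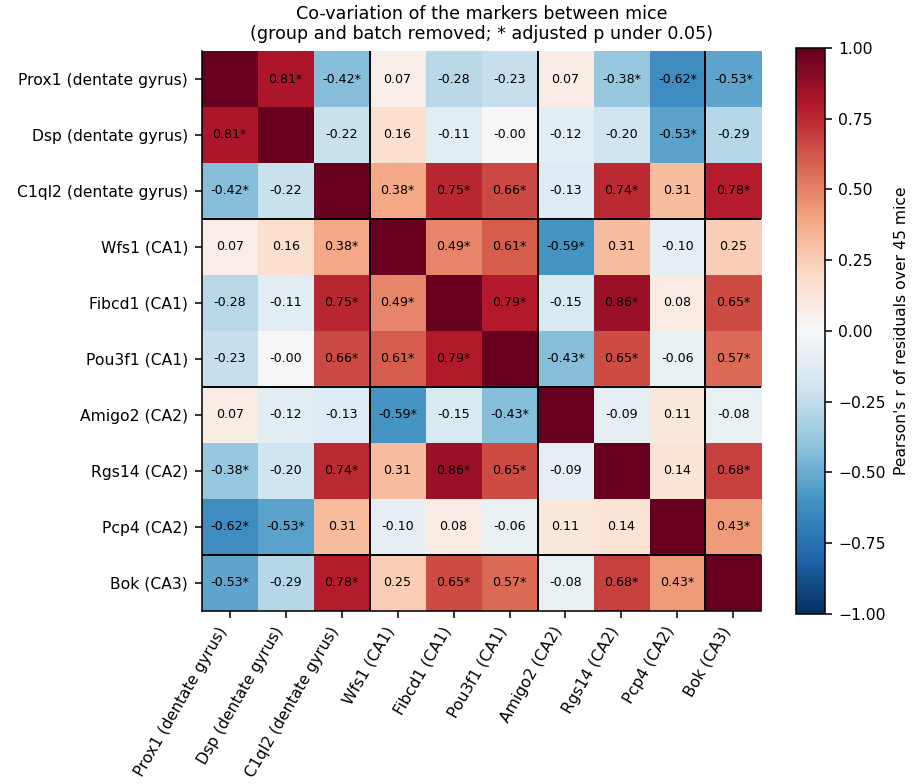
Pearson's r between the residuals of each pair of markers over 45 mice, with group and batch removed, ordered by subfield (black lines), red for positive and blue for negative r. An asterisk marks a permutation adjusted p under 0.05. Prox1 with Dsp (0.81) and a block of C1ql2, Fibcd1, Pou3f1, Rgs14 and Bok stand out.

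Several of these pairs shared 1 axis of variation. Over all genes, the leading principal component of the residuals held 41.3% of their variance. Its score correlated with the residuals of C1ql2 at r = -0.77 (rho = -0.70), of Fibcd1 at -0.76 (rho = -0.72), of Bok at -0.75 (rho = -0.73), of Pou3f1 at -0.75 (rho = -0.73), of Rgs14 at -0.70 (rho = -0.70) and of Prox1 at 0.67 (rho = 0.66), each with a permutation adjusted p of 3e-05 over 30 relations. The component was computed from the residuals of all genes, these markers included, to follow as much of their variance as possible. Low p-values were therefore built in, and they do not set these markers apart from other genes. The share of all genes with such an r was not computed. Within batch 1 the r of C1ql2, Fibcd1, Bok and Pou3f1 were between -0.82 and -0.86, and within batch 0 between -0.54 and -0.62. The 4 r were between -0.70 and -0.74 without the 2 farthest mice. With the component removed, 17 of 45 pairs passed, 3 of 9 within a field and 14 of 36 between fields. Of these 17 pairs, 10 had passed with the component and 7 had not, and 12 pairs were lost. Among the 7 were Prox1 with Wfs1 (r from 0.07 to 0.55), with Pou3f1 (from -0.23 to 0.55) and with Fibcd1 (from -0.28 to 0.47), so that for the last 2 of these the sign turned. Prox1 and Dsp kept their r (0.82), while that of C1ql2 and Prox1 became 0.19 and that of Prox1 and Bok went from -0.53 to -0.05. Of the CA1 pairs, Fibcd1 with Pou3f1 (r = 0.52) and Wfs1 with Pou3f1 (0.46) still passed. Wfs1 with Fibcd1 (0.25) did not (permutation adjusted p = 0.155). Residuals of the microglia score also went with C1ql2 (r = 0.75, rho = 0.67, 0.58 in batch 0, 0.84 in batch 1, 0.68 without the 2 farthest mice, permutation adjusted p = 3e-05). The same adjusted p was found for Rgs14 (r = 0.68), Fibcd1 (0.67) and Bok (0.64). Pou3f1 (0.53) and Pcp4 (0.44) passed as well, and Prox1 ran against the score (-0.45), while Dsp, Wfs1 and Amigo2 did not pass. The part of microglia in this pattern was not tested.

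The 3 genes nearest to each marker, by r of the residuals over the 45 mice, were, but for Prox1 as a neighbour of Dsp, not on the marker lists. For Prox1 they were Arhgap20 (r = 0.92), Setd7 (0.91) and Abi2 (0.90). For C1ql2 they were Ap1s1 (0.92), Caly (0.90) and Stk32c (0.89). For Wfs1 they were Kcnc4 (0.84), Cbarp (0.84) and Ccdc85c (0.83), for Fibcd1 Lrrn2 (0.92), Icam5 (0.91) and Ppp1r9b (0.91), and for Pou3f1 Lrrc4b (0.90), Fbxl16 (0.89) and Rasl10b (0.89). For Amigo2 they were Kcnn2 (0.75), Hspb11 (0.74) and Fopnl (0.72), and for Rgs14 Ptk2b (0.89), Cpne6 (0.88) and Camkv (0.87). For Pcp4 they were Cox7b (0.84) and Cox7a2 (0.83), both of the respiratory chain, and the ribosomal Rpl22 (0.83), and for Bok Asphd2 (0.89), Hpca (0.88), the neuronal calcium sensor hippocalcin, and Med27 (0.87). Of all genes, 8.20% had an absolute r over 0.5 with Amigo2 and 42.0% with C1ql2.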

How the data were processed

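RNA of 1 hippocampus per mouse was measured in 45 mice by single-end sequencing of poly(A) libraries made with a stranded kit. The submitters' processing notes and the study's methods name FastQC 0.11.8, Trimmomatic 0.38, Bowtie2 2.2.3 for removal of rRNA and mitochondrial reads, kallisto 0.44.0 on mm10, DESeq2 1.22.2 and limma 3.38.3. The authors filtered low genes, normalised and variance-stabilised the gene counts and removed the batch effect, and the deposited values are on a log2 scale. For every gene the 2 batches had equal means. Batch stayed as a term in the model, which spends its degree of freedom and accounts for groups unbalanced over batches. Depth per library is not given by these values. Removing batch from unbalanced groups can move differences between groups in the deposited values. This limit holds for the ranges, means, medians and overlaps of groups given here.

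From these values limma 3.58.1 (R 4.3.3) was fitted with 8 groups and batch, with moderated variances that follow the mean. The scripts were checked on data with known answers. Diet over all genotypes came from a fit with genotype, diet and batch. The threshold was an adjusted p of 0.05. Each difference has its 95% interval from the same fit. Correlations used numpy 2.4.6. Mice were grouped by the genotype and diet of their labels. Replicate numbers only name mice in order of accession and pair none. Nothing states litters.

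The 10 markers and 17 further lists with 105 genes, 3 of which were not among the gene symbols of the table, were chosen with earlier results of these data known. All 10 markers are named. Of a further list at most 4 genes past the threshold with the smallest adjusted p, or else the 2 with the highest mean, were eligible to be named, together with the 3 genes nearest to each marker and App, Mapt and Prnp. Calb1 and Ttr were named after their values were seen. The gene positions are from GENCODE M21. The choroid plexus and component scores, batches, other normalisation, filters, weights and single mice were tried as alternatives.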

Additional observations from a re-analysis of the deposited data

Results flagged for a closer look

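Of 80 groups of mice tested (10 markers in 8 groups), 7 held a mouse that lay far from the rest, measured as the gap to the nearest mouse divided by the range of the group. Chance alone flags about 1 in 20 groups, and flags of correlated markers in the same mouse are not independent. In AwTw/STD, replicate 6 was high for Wfs1 (12.00 against 11.22 for the next mouse, 0.774 of the range), and replicate 2 was high for Pcp4 (11.15 against 10.54, 0.871 of the range) and for Bok (9.99 against 9.51, 0.631 of the range). Without replicate 2 the Bok difference between TWD and STD in AwTw mice was 0.72 (adjusted p = 0.0187, limma). In A+T+/TWD, replicate 1 was high for Fibcd1 (11.82 against 11.27, 0.760 of the range) and for Pou3f1 (10.31 against 9.45, 0.836 of the range), and replicate 2 was high for Pcp4 (11.22 against 10.61, 0.808 of the range). In A+Tw/STD, replicate 2 was high for Rgs14 (11.43 against 10.79, 0.810 of the range). All 7 were the highest mouse of their group, and Dsp, Prox1, C1ql2 and Amigo2 had none.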

How the results depend on the processing

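The counts of markers past the threshold stayed within 1.5 times in 934 recomputed counts and moved further in 74. For A+T+ against AwTw on STD the count of 1 became 0 in batch 0 alone, 0 in batch 1 alone, 0 among mice with a choroid plexus score above 0 (chosen after seeing the data) and 2 with array weights, where C1ql2 was added (0.44, adjusted p = 0.0445, limma). For A+ against Aw the 1 became 0 in the same 3 subsets, and leaving out 1 mouse gave 1 throughout for both. For the interaction of A+T+ with diet the 0 became 2 with array weights (Dsp 1.08, adjusted p = 0.0287, and Rgs14 -0.60, adjusted p = 0.0452, limma). For TWD in AwTw mice every setting moved the count of 1: it was 0 in batch 0 alone, with quantile normalization, with no mean trend, with the first residual component score, with only the compared groups in the fit and among mice with a choroid plexus score above 0, 2 with no batch covariate, with genes above the 25th percentile and with the choroid plexus score, and 5 in batch 1 alone and with array weights. Leaving out 1 mouse gave from 0 to 5 there: 0 for 32 mice, 2 for 10 mice, 3 without AwTw/STD replicate 2, and 5 without AwTw/STD replicate 6 or AwTw/TWD replicate 5. For TWD over all genotypes the 2 became 0 in batch 0 alone, 4 in batch 1 alone and 0 with the residual component score, and leaving out 1 mouse gave from 2 to 5: 4 without A+Tw/TWD replicate 1, A+T+/STD replicate 2, AwT+/TWD replicate 4, A+T+/TWD replicate 5 or AwTw/TWD replicate 5, and 5 without A+Tw/STD replicate 2. The batch subsets hold fewer mice, and for the other changes the cause was not tested. Of 45 marker pairs 22 passed, and 11 did in batch 0 alone, with 20 mice. Of the single markers, Rgs14 under TWD in AwTw mice reversed in batch 0 alone (-0.032 against 0.48). No paired analysis was possible because replicate numbers only name mice in order of accession. Small groups limit precision: intervals of A+T+/STD differences span about 1 unit for Dsp (-1.68 to -0.70).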
